A study of Caenorhabditis elegans with 16 samples.

Results

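The UDP-glucuronosyltransferases of Caenorhabditis elegans, whose genes carry the name ugt, were followed through 16 RNA sequencing libraries of whole worms. Members were the protein-coding genes whose name is ugt followed by a number. There were 66 of them among 46904 genes in the deposited tables, and 20191 of those genes were protein-coding. The names were taken as deposited, and protein sequences were not used here.

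UDP-glucuronosyltransferases sit in the membrane of the endoplasmic reticulum and move a sugar from a UDP-sugar onto a small, fat-soluble molecule. The product is more soluble in water and can be pumped out of the cell, so the family belongs to the conjugating step of detoxification, after the cytochrome P450 enzymes. In worms the sugar is often glucose, and much of this chemistry is carried out in the intestine. The family is large in nematodes, and the files assign no substrates to its members.

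All worms were of the N2 strain with a wild-type genotype and grew on nematode growth medium with Escherichia coli HT115, a strain used for RNA interference by feeding. In atp-2 RNAi worms the bacteria expressed double-stranded RNA that targets atp-2, which encodes a catalytic subunit of mitochondrial ATP synthase, and in control worms they carried an empty vector. At 0 hr and at 20 hr there were 2 atp-2 RNAi libraries (replicates 2 and 3) and 3 control libraries. At 24 hr and at 36 hr there was 1 library of each group, and the 54 hr atp-2 RNAi library was deposited beside a 48 hr control. The event from which the hours were counted is not named in the labels. The stated purpose was to find neuronal genes that act when worms form and retrieve memories of an aversive stress. The labels name no cell type as the target of the RNAi. Separate cultures are not named for the replicates, and the p-values therefore measure a spread between libraries that may be technical.

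Levels are given as TPM, which are corrected for gene length and give each gene's share of its library. The depth of the libraries is unknown, since TPM keep no totals. The targeted gene atp-2 averaged 123 TPM in RNAi worms and 1995 TPM in controls at 0 hr, and 184 TPM and 1724 TPM at 20 hr, in the same order. In the single pairs its level ran from 431 to 1043 TPM in RNAi libraries and from 2225 to 2607 TPM in controls. The times were deposited in separate tables, so levels set side by side across times are a description.

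The family as a whole took a larger share of the transcripts in atp-2 RNAi worms than in controls in each of the 5 comparisons. At 0 hr the summed level of the 66 genes was 3045 and 3858 TPM in atp-2 RNAi worms, against 924, 1028 and 1286 TPM in controls. At 20 hr it was 4227 and 4095 TPM in atp-2 RNAi worms, against 662, 585 and 587 TPM in controls. The groups did not overlap at either time, and the ratio of the group means was 3.20 at 0 hr and 6.81 at 20 hr. At 24 hr the sum was 1454 TPM in the atp-2 RNAi library and 1022 TPM in the control, and at 36 hr it was 1941 TPM and 1231 TPM, in the same order. The 54 hr atp-2 RNAi library held 4120 TPM and the 48 hr control 1827 TPM. These 3 pairs had ratios of 1.42, 1.58 and 2.25, with no replicate check. In RNA of whole worms, fewer cells of a type and less RNA per cell cannot be told apart.

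**Figure D1:**
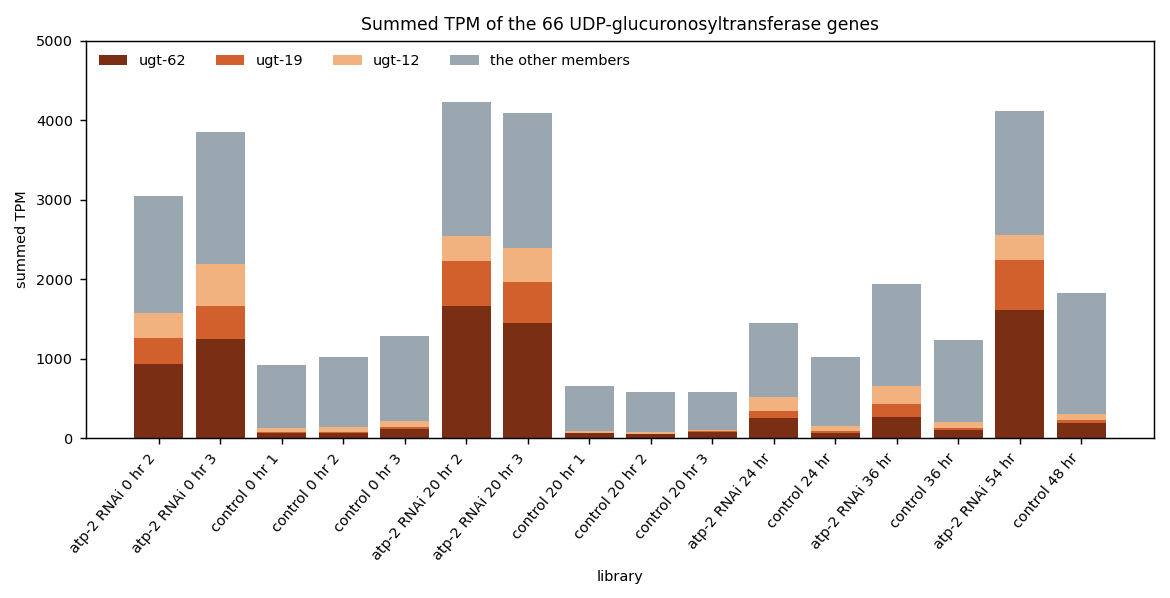
Summed TPM of the 66 UDP-glucuronosyltransferase genes (y axis) in each of the 16 libraries (x axis), with the parts of ugt-62, ugt-19 and ugt-12 in colour and the other members in grey. The 4 atp-2 RNAi bars of 0 hr and 20 hr lie between 3045 and 4227 TPM, and the 6 control bars of these times between 585 and 1286 TPM.

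Much of this difference was carried by few genes. The genes ugt-62, ugt-19 and ugt-12, chosen after their values were seen, together made up 54.4% of the family's TPM on average in atp-2 RNAi worms at 0 hr, against 14.8% in controls. At 20 hr they made up 59.4% against 15.3%, at 24 hr 35.7% against 14.98%, at 36 hr 34.2% against 16.95%, and in the last pair 62.1% against 16.9%. Without these 3 genes the ratio of the summed levels, atp-2 RNAi over control, was 1.70 at 0 hr, 3.26 at 20 hr, 1.08 at 24 hr, 1.25 at 36 hr and 1.03 in the 54 hr to 48 hr pair.

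Transcripts of other tissues moved in the same libraries. Oocyte and eggshell markers fell in 10 of 10 tested cases at 0 hr and again at 20 hr (limma adjusted p under 0.05). None of these markers was listed at 0 in all 4 atp-2 RNAi libraries of the replicated times. Their summed level was 9.89 to 11.1 TPM in atp-2 RNAi worms, against 5582 to 7742 TPM in controls, at 0 hr, and 23.3 to 41.1 TPM against 9955 to 12025 TPM at 20 hr. The eggshell gene perm-2 was listed at 0 in the atp-2 RNAi libraries of 24 hr and 54 hr and in the controls of 24 hr and 36 hr. Intestine markers had a summed level of 8949 to 9938 TPM in atp-2 RNAi worms, against 3595 to 7004 TPM in controls, at 0 hr, and 9237 to 10669 TPM against 1654 to 2921 TPM at 20 hr. Of these 12 markers, 6 were higher and 3 lower at 0 hr, and 8 were higher and 2 lower at 20 hr. The part of either tissue in the levels of the ugt genes at 0 hr and 20 hr was not tested. At 24 hr the oocyte and eggshell markers summed to 5.29 TPM in the atp-2 RNAi library and 5.92 TPM in the control, and the intestine markers to 10689 TPM and 10591 TPM, in the same order. At 36 hr these sums were 4.52 TPM and 14.4 TPM for oocyte and eggshell markers, and 13782 TPM and 13965 TPM for intestine markers, with the atp-2 RNAi library first. In the last pair they were 8.34 TPM and 248 TPM for oocyte and eggshell markers, and 11165 TPM and 15847 TPM for intestine markers, in the same order.

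The member with the highest level was ugt-62 (WBGene00010904, chromosome III, 4537277 to 4540644, minus strand, build WBcel235). At 0 hr it stood at 939.8 and 1246 TPM in atp-2 RNAi worms, against 67.6, 71.3 and 117 TPM in controls. At 20 hr it stood at 1662 and 1451 TPM in atp-2 RNAi worms, against 66.004, 50.1 and 79.8 TPM in controls. The lowest atp-2 RNAi value of these times was several times the highest control value. The group means at 0 hr were 1093 ± 216 TPM and 85.1 ± 27.3 TPM, in that order (SD, n = 2 and 3; log2 change 3.70, SE 0.25, limma adjusted p = 7.54e-06). The log2 change is atp-2 RNAi minus control on log2(TPM + 1), so it understates the change of genes with low levels. At 20 hr the log2 change was 4.58 (SE 0.20, limma adjusted p = 1.08e-06). In the single libraries ugt-62 was at 260.1 TPM against 72.1 TPM in the control at 24 hr, at 266 TPM against 107 TPM at 36 hr, and at 1614 TPM in the 54 hr library against 191 TPM in the 48 hr control.

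On the log2(TPM + 1) scale the largest change of the family belonged to ugt-19 (WBGene00019515, chromosome IV, 6076692 to 6079945, minus strand) at both replicated times. At 0 hr its level was 320.4 and 419.5 TPM in atp-2 RNAi worms, against 8.04, 11.4 and 20.4 TPM in controls (log2 change 4.78, SE 0.33, limma adjusted p = 9.05e-06). At 20 hr it was 566 and 519 TPM in atp-2 RNAi worms, against 7.32, 5.82 and 8.93 TPM in controls (log2 change 6.04, SE 0.18, limma adjusted p = 3.12e-07). The groups were far apart, and the control values at 0 hr spread more, relative to their mean, than those at 20 hr. At 24 hr ugt-19 was at 84.1 TPM in the atp-2 RNAi library and 16.3 TPM in the control, at 36 hr at 171 TPM and 22.7 TPM, and in the last pair at 624 TPM at 54 hr and 35.3 TPM in the 48 hr control.

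The third, ugt-12 (WBGene00020592, chromosome V, 4887187 to 4889629, minus strand), stood at 320.1 and 532 TPM in atp-2 RNAi worms at 0 hr, against 51.1, 60.2 and 78.8 TPM in controls (log2 change 2.71, SE 0.25, limma adjusted p = 3.42e-05). At 20 hr it stood at 319 and 427 TPM in atp-2 RNAi worms, against 24.1, 19.5 and 18.6 TPM in controls (log2 change 4.10, SE 0.18, limma adjusted p = 1.13e-06). The atp-2 RNAi values differed more between their 2 libraries than those of ugt-19 at 20 hr, and still lay above every control. In the single pairs ugt-12 was at 174 TPM against 64.7 TPM at 24 hr, 228 TPM against 79.5 TPM at 36 hr, and 321 TPM in the 54 hr library against 83.5 TPM in the 48 hr control.

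**Figure D2:**
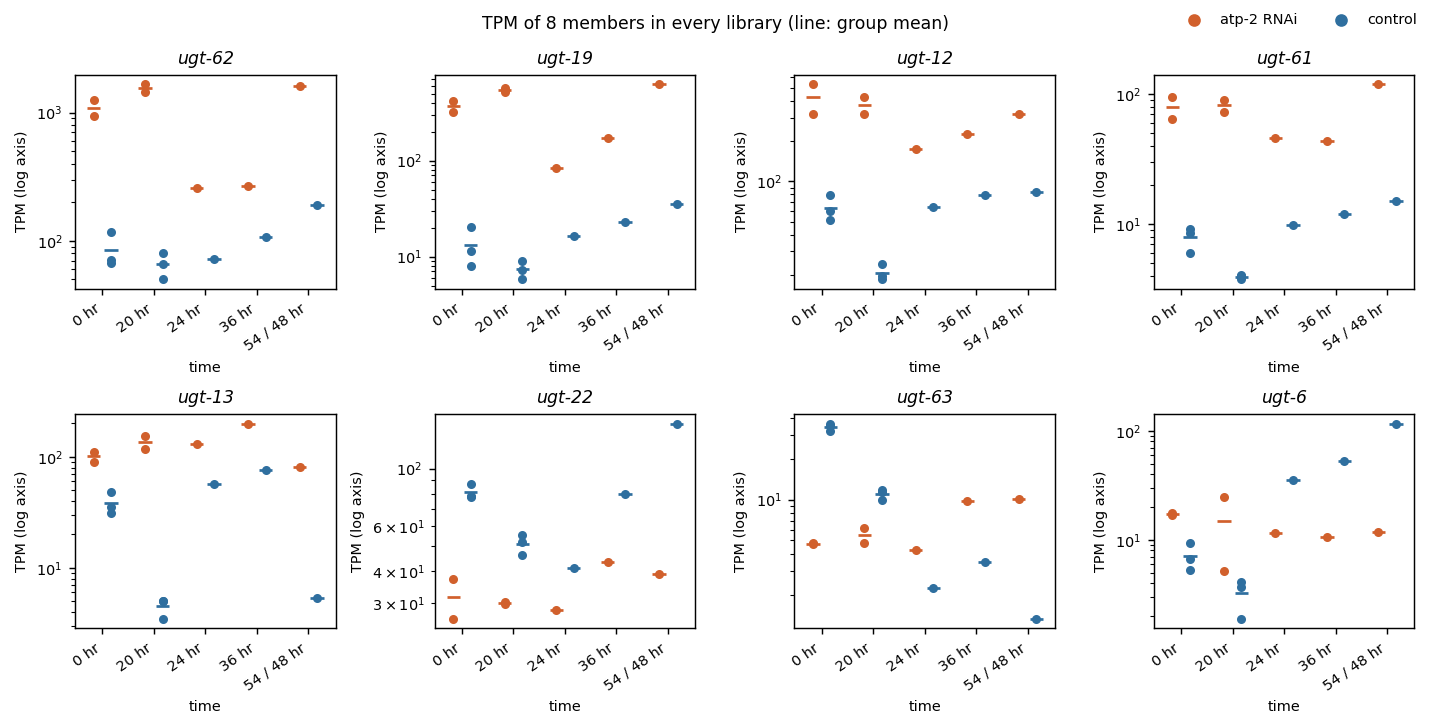
TPM (y axes, log scale) of 8 members in every library by time (x axes), with atp-2 RNAi in orange, control in blue and a line at each group mean; the genes were chosen after their values were seen. The atp-2 RNAi points of ugt-62, ugt-19, ugt-12, ugt-61 and ugt-13 lie above the control points at each time, while ugt-22 lies below, ugt-63 lies below at 0 hr and 20 hr and above later, and ugt-6 lies above at 0 hr and 20 hr and below later.

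Other members with a high level also had large changes. The gene ugt-2 (chromosome V, 10398717 to 10401307, plus strand) was at 124 and 173 TPM in atp-2 RNAi worms at 0 hr, against 5.12, 6.83 and 13.01 TPM in controls (log2 change 4.08, SE 0.34, limma adjusted p = 1.98e-05), and at 206 and 162 TPM at 20 hr, against 5.71, 4.86 and 4.95 TPM in controls (log2 change 4.90). The gene ugt-61 (chromosome V, 4742427 to 4745373, plus strand) was at 64.01 and 94.9 TPM in atp-2 RNAi worms at 0 hr, against 5.97, 8.49 and 9.19 TPM in controls (log2 change 3.17, SE 0.24, limma adjusted p = 1.2e-05), and at 91.3 and 73.7 TPM at 20 hr, against 4.02, 3.76 and 3.95 TPM in controls (log2 change 4.08). For both genes the groups did not overlap at either time, which is a description, since the share of all such genes is not given here. The gene ugt-50 (chromosome X, 12691573 to 12695652, plus strand) was at 198 and 182 TPM in atp-2 RNAi worms at 0 hr, against 26.1, 32.5 and 44.8 TPM in controls (log2 change 2.46, SE 0.22, limma adjusted p = 2.59e-05), and at 217 and 199.6 TPM at 20 hr, against 16.8, 17.7 and 12.6 TPM in controls (log2 change 3.66). In the unreplicated pairs ugt-50 was closer, at 90.01 TPM against 75.7 TPM at 24 hr and 118 TPM against 100.2 TPM at 36 hr. The gene ugt-58 (chromosome II, 9584384 to 9586815, minus strand) was at 88.97 and 109 TPM in atp-2 RNAi worms at 0 hr, against 45.3, 46.1 and 49.5 TPM in controls (log2 change 1.05, limma adjusted p = 0.000201), and its groups did not overlap.

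Some members with a low control level were also higher. The genes ugt-15, ugt-18 and ugt-33, like ugt-55, passed the filter of 1 TPM through the atp-2 RNAi libraries alone at both times, so they had to differ, and their values are a description. The gene ugt-18 stood at 11.7 and 7.40 TPM in atp-2 RNAi worms at 0 hr, against 0.0144, 0.185 and 0.186 TPM in controls (log2 change 3.20), and at 16.8 and 19.3 TPM at 20 hr, against 0.355, 0.0945 and 0.317 TPM in controls (log2 change 3.93). Controls were under 1 TPM at both times. The gene ugt-33 stood at 11.1 and 8.22 TPM in atp-2 RNAi worms at 0 hr, against 0.423, 0.573 and 0.958 TPM in controls (log2 change 2.69). The gene ugt-21 stood at 57.04 and 56.8 TPM in atp-2 RNAi worms at 0 hr, against 6.04, 8.20 and 13.7 TPM in controls (log2 change 2.56), and at 91.6 and 58.98 TPM at 20 hr, against 3.12, 3.51 and 2.57 TPM in controls (log2 change 4.20). In ugt-15 a single replicate number carried the signal: its level was 10.5 and 0.567 TPM in atp-2 RNAi replicates 2 and 3 at 0 hr, against 0.157, 0.644 and 0.523 TPM in controls, and 6.14 and 0.296 TPM at 20 hr, against 0.0446, 0.0249 and 0 TPM in controls.

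At 0 hr most tested members were higher in atp-2 RNAi worms. A gene was tested where its mean over the 5 libraries was at least 1 TPM, and called where the limma adjusted p over all genes was under 0.05. Of the 66 members, 56 were tested and 35 of them rose, which is 62.5% of those tested, against 43.7% of all genes tested. Another 8 fell, which is 14.3%, against 39.6% of all genes tested. The remaining 13 tested members were not called, namely ugt-11, ugt-15, ugt-26, ugt-31, ugt-37, ugt-39, ugt-40, ugt-41, ugt-44, ugt-45, ugt-46, ugt-53 and ugt-66. The median log2 change of the tested members was 0.91, against 0.13 for all genes tested. The filter kept ugt-15, ugt-18, ugt-33, ugt-43, ugt-55 and ugt-59 through the atp-2 RNAi libraries alone, while 50 members had a mean of at least 1 TPM in both groups. The rises of ugt-8, ugt-9, ugt-23, ugt-29, ugt-59 and ugt-65 were each lost from the calls when some single library was left out (for ugt-29, log2 change 0.75, limma adjusted p = 0.126 without atp-2 RNAi replicate 2). The 8 largest rises past the threshold on this scale were those of ugt-19, ugt-2, ugt-62, ugt-18, ugt-61, ugt-12, ugt-33 and ugt-21. With a minimum change of 2-fold in the test itself, 17 members were higher, against 22.3% of all genes tested, and 2 lower, against 21% of all genes, and the members were 30.4% and 3.57% of those tested.

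The members that fell at 0 hr were led by ugt-63 and included ugt-47, one of the members with the highest mean level. The gene ugt-63 (chromosome V, 5108180 to 5110791, minus strand) stood at 4.76 and 4.71 TPM in atp-2 RNAi worms, against 34.8, 31.8 and 36.2 TPM in controls (log2 change -2.62, SE 0.15, limma adjusted p = 3.82e-06). Replicates lay close together in both groups. The gene ugt-30 stood at 1.79 and 2.55 TPM in atp-2 RNAi worms, against 6.69, 10.8 and 16.7 TPM in controls (log2 change -1.89, limma adjusted p = 0.00113), and ugt-4 at 1.36 and 1.38 TPM, against 5.21, 4.68 and 9.05 TPM in controls (log2 change -1.58, limma adjusted p = 0.000911). The gene ugt-22 (chromosome IV, 13639260 to 13644402, plus strand), which in C. elegans has been tied to survival of the anthelmintic albendazole, stood at 26.1 and 37.1 TPM in atp-2 RNAi worms, against 78.003, 87.1 and 77.8 TPM in controls (log2 change -1.35, SE 0.17, limma adjusted p = 0.000168). The gene ugt-64 stood at 26.2 and 28.4 TPM in atp-2 RNAi worms, against 78.2, 71.3 and 51.3 TPM in controls (log2 change -1.24), and ugt-47 at 57.6 and 59.7 TPM, against 88.03, 102 and 134 TPM in controls (log2 change -0.85). For these 6 genes no atp-2 RNAi value reached a control value. They were picked as the largest called falls, and the share of all genes without overlap is not given here, so this is a description. The other 2 calls were weaker: ugt-32 (log2 change -0.76, limma adjusted p = 0.0256) was not called without atp-2 RNAi replicate 2 (adjusted p = 0.117) or replicate 3 (adjusted p = 0.0789), and ugt-49 (log2 change -0.50, limma adjusted p = 0.0488) was not called without atp-2 RNAi replicate 2 (adjusted p = 0.33), control replicate 2 (adjusted p = 0.087) or control replicate 3 (adjusted p = 0.0902).

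**Figure D3:**
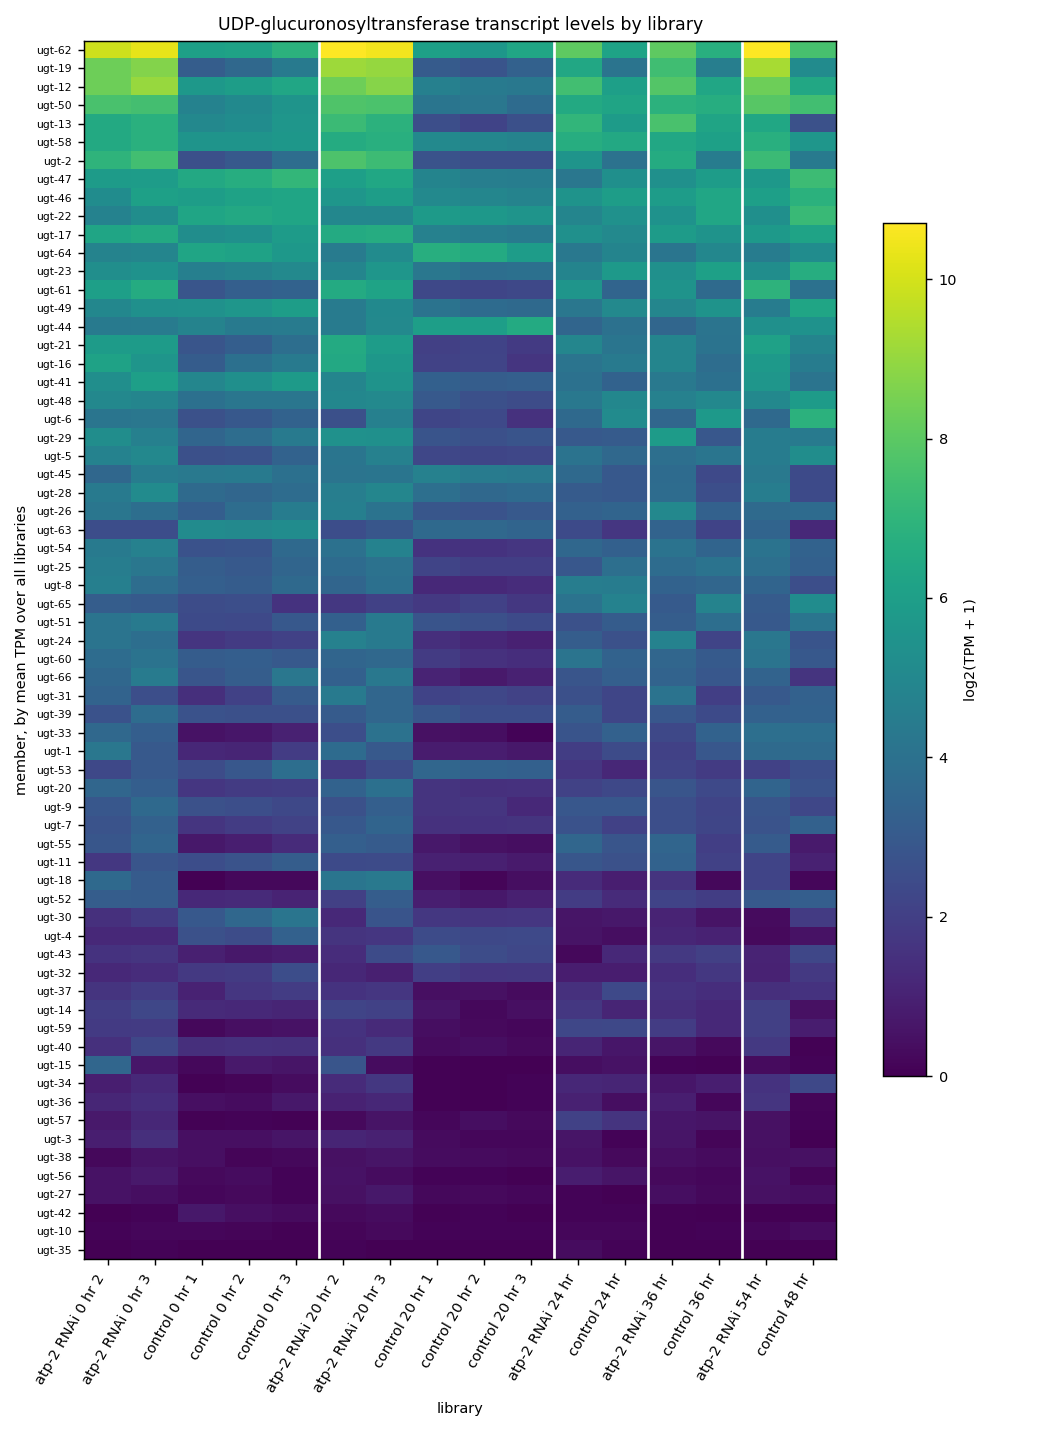
Level of each of the 66 members (rows, ordered by mean TPM over all libraries) in each of the 16 libraries (columns, atp-2 RNAi left of control at each time), as log2(TPM + 1) by colour; white lines part the times. The rows of ugt-62, ugt-19 and ugt-12 at the top are brightest in the atp-2 RNAi columns, while the bottom rows, such as ugt-10 and ugt-35, stay dark in every library.

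At 20 hr most tested members were again higher in atp-2 RNAi worms. Of 55 tested members, 44 rose, which is 80% of those tested, against 47.7% of all genes tested. Another 7 fell, which is 12.7%, against 40.7% of all genes tested, and ugt-30, ugt-43, ugt-45 and ugt-65 were not called. The median log2 change of the tested members was 1.75, against 0.31 for all genes tested. The filter kept 11 members through the atp-2 RNAi libraries alone (ugt-1, ugt-11, ugt-14, ugt-15, ugt-18, ugt-33, ugt-37, ugt-40, ugt-52, ugt-55 and ugt-66), and 44 members had a mean of at least 1 TPM in both groups. With a minimum change of 2-fold in the test, 33 members (60%) were higher, against 34% of all genes, and 0 were lower, against 27.4%. After quantile normalization 34 members (61.8%) were higher, against 42.9% of all genes, and 8 (14.5%) were lower, against 40.5%.

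The 8 largest rises at 20 hr were those of ugt-19, ugt-2, ugt-13, ugt-62, ugt-21, ugt-12, ugt-61 and ugt-16. The gene ugt-13 (chromosome V, 4908868 to 4911399, plus strand) stood at 154 and 117 TPM in atp-2 RNAi worms, against 4.98, 3.49 and 5.05 TPM in controls (log2 change 4.63, SE 0.21, limma adjusted p = 1.16e-06). The gene ugt-16 stood at 87.2 and 49.1 TPM in atp-2 RNAi worms, against 3.37, 3.62 and 2.12 TPM in controls (log2 change 4.06). Both genes had an atp-2 RNAi group well clear of the controls. The rise of ugt-6, at 5.16 and 24.6 TPM in atp-2 RNAi worms against 3.67, 4.08 and 1.89 TPM in controls (log2 change 1.62, limma adjusted p = 0.0258), rested on few libraries. Without atp-2 RNAi replicate 3 its log2 change was 0.59 (adjusted p = 0.17), and without control replicate 1 or 3 the adjusted p was 0.0701 or 0.0727. The rise of ugt-15 (limma adjusted p = 0.0401) was not called without atp-2 RNAi replicate 2, control replicate 1 or control replicate 3. The rises of ugt-37, ugt-39 and ugt-40 were likewise lost from the calls without some single library.

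Another 19 members rose at both replicated times. They were ugt-1, ugt-5, ugt-7, ugt-8, ugt-9, ugt-14, ugt-17, ugt-20, ugt-23, ugt-24, ugt-25, ugt-28, ugt-29, ugt-48, ugt-51, ugt-52, ugt-54, ugt-55 and ugt-60. Their log2 changes ran from 0.55 for ugt-23 to 2.22 for ugt-1 at 0 hr, and from 1.01 for ugt-28 to 3.31 for ugt-24 at 20 hr. Their mean levels over all libraries ran from 1.78 TPM for ugt-14 to 53.6 TPM for ugt-17. The gene ugt-1, next to ugt-2 on the chromosome, stood at 17.7 and 6.97 TPM in atp-2 RNAi worms at 0 hr, against 1.26, 1.13 and 2.76 TPM in controls, and at 12.4 and 6.997 TPM at 20 hr, against 0.764, 0.797 and 0.599 TPM in controls. The gene ugt-55 stood at 6.19 and 10.3 TPM in atp-2 RNAi worms at 0 hr, against 0.597, 0.881 and 1.48 TPM in controls, and at 8.45 and 7.34 TPM at 20 hr, against 0.618, 0.401 and 0.300 TPM in controls. The filter kept ugt-55 at both times and ugt-1 at 20 hr through the atp-2 RNAi libraries alone, so these values are a description. The same holds for ugt-14 and ugt-52 at 20 hr. The gene ugt-48 stood at 30.1 and 32.2 TPM in atp-2 RNAi worms at 20 hr, against 6.94, 5.06 and 4.56 TPM in controls, and ugt-60 at 10.4 and 11.1 TPM, against 2.66, 1.90 and 1.60 TPM in controls. Members called at 20 hr and not at 0 hr included ugt-46, at 47.7 and 61.9 TPM in atp-2 RNAi worms at 20 hr against 31.8, 28.9 and 26.6 TPM in controls (log2 change 0.88), and at 35.7 and 67.02 TPM at 0 hr against 61.2, 71.5 and 76.9 TPM in controls (log2 change -0.50, limma adjusted p = 0.1).

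The members lower at 20 hr were only partly those lower at 0 hr. The largest falls were those of ugt-64, at 20.8 and 35.3 TPM in atp-2 RNAi worms against 103, 92.4 and 59.5 TPM in controls (log2 change -1.57, SE 0.29, limma adjusted p = 0.00122), and ugt-44, at 21.1 and 32.2 TPM against 63.4, 63.6 and 92.5 TPM in controls (log2 change -1.43, SE 0.24, limma adjusted p = 0.000678). The gene ugt-53 stood at 2.67 and 4.57 TPM in atp-2 RNAi worms, against 10.4, 9.32 and 8.78 TPM in controls (log2 change -1.22). The gene ugt-63 stood at 4.79 and 6.20 TPM in atp-2 RNAi worms, against 11.7, 11.4 and 9.88 TPM in controls (log2 change -0.89), and ugt-22 at 30.3 and 29.9 TPM, against 55.2, 51.8 and 45.98 TPM in controls (log2 change -0.74). The groups did not overlap for these 5 genes, which is a description, since they were picked by the size of their falls. The smaller falls were those of ugt-32 (log2 change -0.73) and ugt-4 (log2 change -0.73). The fall of ugt-22 was no longer called after quantile normalization (log2 change -0.01, adjusted p = 0.933).

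Across both replicated times, 32 of the 55 members tested at both times rose at both, against 40.7% of all genes tested at both, and the 32 were 58.2% of these members. Among the 32, the filter kept ugt-18, ugt-33 and ugt-55 through the atp-2 RNAi libraries alone at both times. It kept ugt-1, ugt-14 and ugt-52 in that way at 20 hr. These members had to be higher there, so the share is a description. The 5 members ugt-4, ugt-22, ugt-32, ugt-63 and ugt-64 fell at both times, which is 9.09%, against 34.4% of all genes. The call of ugt-32 at 0 hr, as given above, was lost without either atp-2 RNAi library. Only ugt-47 and ugt-49 were called in opposite directions, lower at 0 hr and higher at 20 hr, as were 1.21% of all genes tested at both times. The fall of ugt-49 at 0 hr was not called in a single fit of the 10 libraries (adjusted p = 0.0671), after quantile normalization (log2 change -0.19, adjusted p = 0.478) or without any of the 3 libraries named above. No member was called higher at 0 hr and lower at 20 hr, as were 0.346% of all genes. The gene ugt-47 (chromosome V, 10096305 to 10098597, minus strand) stood at 64.6 and 80.8 TPM in atp-2 RNAi worms at 20 hr, against 27.2, 22.6 and 21.99 TPM in controls (log2 change 1.56, SE 0.17, limma adjusted p = 5.3e-05), after the fall at 0 hr given above. Its atp-2 RNAi values of both times lay between 57.6 and 80.8 TPM, while its controls stood at 88.03, 102 and 134 TPM at 0 hr. The gene ugt-49 stood at 20.9 and 32.7 TPM in atp-2 RNAi worms at 20 hr, against 15.9, 12.5 and 11.5 TPM in controls (log2 change 0.94), and at 30.004 and 40.5 TPM at 0 hr, against 42.1, 47.6 and 61.7 TPM in controls.

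The change at 20 hr was compared with the change at 0 hr as an interaction of treatment and time over all 10 libraries. Of 56 tested members, 28 had a more positive change at 20 hr, which is 50% of those tested, against 21.1% of all genes tested. The 2 members ugt-43 and ugt-44 had a more negative one, which is 3.57%, against 21.9% of all genes. The median difference of the tested members was 0.84, against -0.08 for all genes. The largest difference was that of ugt-13, whose log2 change was 4.63 at 20 hr and 1.39 at 0 hr (difference 3.24, SE 0.31, limma adjusted p = 6.09e-05). Its atp-2 RNAi level was 135 ± 26.1 TPM at 20 hr and 101 ± 14.8 TPM at 0 hr (SD, n = 2 each). Its control level was 4.51 ± 0.880 TPM at 20 hr and 38.3 ± 9.03 TPM at 0 hr (SD, n = 3 each). The next were ugt-47 (difference 2.41, adjusted p = 0.000125), ugt-66 (difference 2.26, adjusted p = 0.0146), ugt-30 (difference 2.24, adjusted p = 0.0152) and ugt-11 (difference 2.06, adjusted p = 0.00487), all by limma. Of these, ugt-66 and ugt-30 were not called without atp-2 RNAi replicate 2 of 0 hr (adjusted p = 0.063 and 0.0552). Without that library 17 members in all had a more positive change, against 16.3% of all genes, and 16 of them were among the 28. After quantile normalization 16 of 56 members (28.6%) were more positive, against 16% of all genes. The members ugt-32, ugt-43, ugt-59 and ugt-65 (7.14%) were more negative, against 18.7%. A shift of each library to a common median gave 21 of 56 members (37.5%) more positive, against 17.7% of all genes. It gave 2 (3.57%) more negative, against 30.8%, with a median difference of 0.65 for the members and -0.26 for all genes. The gene ugt-66 stood at 8.84 and 18.3 TPM in atp-2 RNAi worms at 20 hr, against 1.11, 0.659 and 0.971 TPM in controls, and at 10.9 and 20.7 TPM at 0 hr, against 6.12, 7.97 and 17.9 TPM in controls. The gene ugt-11 stood at 4.29 and 4.51 TPM in atp-2 RNAi worms at 20 hr, against 1.003, 0.909 and 0.685 TPM in controls, and at 2.32 and 6.13 TPM at 0 hr, against 4.82, 5.58 and 7.95 TPM in controls. In both genes the controls of 20 hr were far below the controls of 0 hr, and the groups overlapped at 0 hr. The gene ugt-30 stood at 1.38 and 5.93 TPM in atp-2 RNAi worms at 20 hr, against 2.30, 2.10 and 2.22 TPM in controls (limma adjusted p = 0.44).

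**Figure D4:**
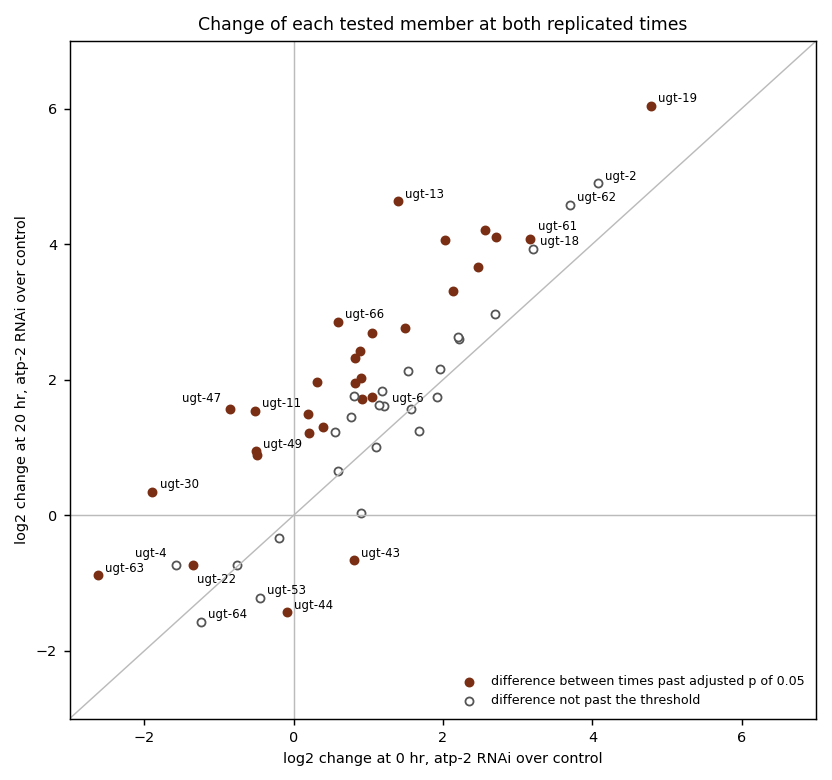
Log2 change of each member tested at both times, atp-2 RNAi over control, at 20 hr (y axis) against 0 hr (x axis), with the diagonal of equal change; filled points are members whose difference between the times passed a limma adjusted p of 0.05. Most points lie above the diagonal, with ugt-13 farthest above it and ugt-44 and ugt-43 below it.

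The members with a more negative change, ugt-44 and ugt-43, are neighbours on chromosome IV. The gene ugt-44 stood at 21.1 and 32.2 TPM in atp-2 RNAi worms at 20 hr, against 63.4, 63.6 and 92.5 TPM in controls, and at 19.8 and 21.1 TPM at 0 hr, against 26.3, 19.4 and 20.7 TPM in controls (difference of log2 changes -1.34, limma adjusted p = 0.00877). After quantile normalization the difference was -0.71 and was not called (adjusted p = 0.113). The control values of ugt-44 at 20 hr were the highest of the 4 groups. The gene ugt-43 stood at 1.60 and 4.47 TPM in atp-2 RNAi worms at 20 hr, against 6.81, 4.67 and 3.83 TPM in controls, and at 1.98 and 2.14 TPM at 0 hr, against 0.913, 0.625 and 0.735 TPM in controls (difference -1.47, limma adjusted p = 0.0204). The difference for ugt-43 was not called without atp-2 RNAi replicate 2 of 0 hr (adjusted p = 0.0532), replicate 3 of 0 hr (0.0565) or replicate 2 of 20 hr (0.0644).

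The unreplicated pairs have no test, and a member was counted where TPM + 1 differed by at least 2-fold and the mean of the pair was at least 1 TPM. At 24 hr, 6 of 52 members were higher in the atp-2 RNAi library (ugt-2, ugt-12, ugt-13, ugt-19, ugt-61 and ugt-62), against 6.41% of all genes, and ugt-6 and ugt-47 were lower, against 4.1% of all genes. At 36 hr, 17 of 53 were higher, against 7.57%, and ugt-6, ugt-33 and ugt-65 were lower, against 5.56%. In the 54 hr library, 23 of 56 were higher than in the 48 hr control, against 17.8%, and 9 were lower, against 14.9%. The times of the last pair differ, so treatment and time cannot be told apart in it. The shares of members were 11.5%, 32.1% and 41.1% for higher values and 3.85%, 5.66% and 16.1% for lower ones. The median log2 ratio of the members was 0.22, 0.37 and 0.51 at the 3 pairs, against 0.13, 0.15 and 0.17 for all genes counted.

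The 6 members higher at 24 hr were all higher by at least 2-fold in the later pairs too, and all had risen at 0 hr and 20 hr. Of all genes tested at both replicated times, 40.7% rose at both. The share of all genes with the whole pattern was not counted, so it is a description of these members. The largest log2 ratio of TPM + 1 belonged to ugt-19 at 24 hr (2.30) and at 54 hr (4.11). At 36 hr it belonged to ugt-29 (2.95), at 57.8 TPM in the atp-2 RNAi library against 6.59 TPM in the control, while the same gene was at 6.84 TPM against 7.47 TPM at 24 hr and 21.5 TPM in the 54 hr library against 20.3 TPM in the 48 hr control. Its libraries were close in the pairs before and after. The genes ugt-24 (25.8 TPM against 3.63 TPM, log2 ratio 2.53) and ugt-31 (15.8 TPM against 2.99 TPM, log2 ratio 2.08) were also highest, relative to their control, at 36 hr among the 3 pairs. In the last pair ugt-13 was at 81.1 TPM in the 54 hr library against 5.34 TPM in the 48 hr control (log2 ratio 3.70), ugt-62 had a log2 ratio of 3.07 and ugt-61 one of 2.91.

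Some members had the opposite sign in the pairs. The gene ugt-6 (chromosome V, 12795484 to 12798154, minus strand) was higher in atp-2 RNAi worms at 0 hr, at 17.02 and 17.7 TPM against 5.30, 6.60 and 9.41 TPM in controls (log2 change 1.21, limma adjusted p = 0.00164). It was lower at 24 hr, at 11.5 TPM against 35.3 TPM, at 36 hr, at 10.7 TPM against 53.3 TPM, and at 54 hr, at 11.8 TPM against 117 TPM in the 48 hr control. Its 3 atp-2 RNAi values of the pairs were alike, while the control values were higher at each later time. The gene ugt-63 went the other way: it fell at 0 hr and 20 hr but was at 9.70 TPM against 3.46 TPM at 36 hr, and at 10.02 TPM in the 54 hr library against 1.33 TPM in the 48 hr control. The gene ugt-65 was at 7.18 TPM in the atp-2 RNAi library against 26.8 TPM in the control at 36 hr, and at 7.40 TPM in the 54 hr library against 36.2 TPM in the 48 hr control. The gene ugt-33 was at 4.04 TPM in the atp-2 RNAi library against 9.26 TPM in the control at 36 hr. The gene ugt-47 was at 18.1 TPM against 38.8 TPM at 24 hr, and at 51.04 TPM in the 54 hr library against 161 TPM in the 48 hr control. The genes ugt-49, at 21.5 TPM against 77.2 TPM, and ugt-22, at 38.8 TPM against 149.8 TPM, were also among the lowest ratios of the last pair. Both were at their highest control level of all times in that 48 hr control. The ratio of ugt-22 had the same sign as its falls at 0 hr and 20 hr. The ratios of ugt-47 and ugt-49 were opposite to their rises at 20 hr alone, since both genes were lower at 0 hr.

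The controls of all times served as a second yardstick. The 4 atp-2 RNAi libraries of 0 hr and 20 hr lay above all 9 control libraries for 20 of 56 members, which is 35.7%, against 14% of all genes. These were ugt-2, ugt-12, ugt-13, ugt-14, ugt-16, ugt-17, ugt-18, ugt-19, ugt-20, ugt-21, ugt-24, ugt-28, ugt-29, ugt-50, ugt-54, ugt-55, ugt-58, ugt-60, ugt-61 and ugt-62. They lay below all 9 controls for ugt-22 alone, against 3.33% of all genes: its 4 values lay between 26.1 and 37.1 TPM, and its controls between 41.1 and 149.8 TPM. The gap was widest for ugt-19, whose lowest of the 4 values was 9.08 times the highest control value, followed by ugt-18 (8.81), ugt-2 (5.71), ugt-62 (4.93), ugt-61 (4.25) and ugt-12 (3.83). It was narrow for ugt-50 (1.04) and ugt-58 (1.02). All 7 atp-2 RNAi libraries lay above all 9 controls for 12 of 57 members (ugt-2, ugt-12, ugt-13, ugt-14, ugt-18, ugt-19, ugt-21, ugt-24, ugt-55, ugt-60, ugt-61 and ugt-62), against 6.37% of all genes, and below them for 0 members, against 1.19% of all genes. In both counts ugt-14 and ugt-18 passed the filter of 1 TPM through the atp-2 RNAi libraries alone, so their place is a description. The highest control value of ugt-18 was 0.840 TPM.

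The members spanned a wide range of levels. By the mean over all 16 libraries the highest were ugt-62 (516 TPM), ugt-19 (178 TPM), ugt-12 (175 TPM), ugt-50 (109 TPM), ugt-13 (72.0 TPM), ugt-58 (70.2 TPM), ugt-2 (66.1 TPM) and ugt-47 (64.1 TPM). The 10 members below the filter at 0 hr were ugt-3, ugt-10, ugt-27, ugt-34, ugt-35, ugt-36, ugt-38, ugt-42, ugt-56 and ugt-57, and ugt-59 joined them at 20 hr. Among them, ugt-3, ugt-34 and ugt-36 averaged at least 1 TPM in atp-2 RNAi worms at 0 hr. The gene ugt-36 stood at 1.20 and 1.67 TPM in atp-2 RNAi worms, against 0.337, 0.274 and 0.600 TPM in controls, and ugt-34 at 0.846 and 1.35 TPM, against 0.0453, 0.103 and 0.293 TPM in controls. The groups did not overlap, but these genes were picked by their atp-2 RNAi level, so the values are a description. The lowest was ugt-35, which was listed at 0 in 10 of 16 libraries and nowhere above 0.286 TPM. The number of members above 10 TPM was 38 and 36 in the atp-2 RNAi libraries at 0 hr, against 19, 23 and 30 in controls, and 33 and 38 at 20 hr, against 16, 15 and 14 in controls. Above 1 TPM there were 57 and 59 members in the atp-2 RNAi libraries at 0 hr, against 50, 50 and 51 in controls. At 20 hr there were 59 and 57 such members, against 46, 44 and 43 in controls. Of all genes, 13269 and 13206 were above 1 TPM in atp-2 RNAi worms at 0 hr, against 12426, 12921 and 13205 in controls. At 20 hr these were 12896 and 13565, against 10989, 10889 and 10619 in controls. All genes above 10 TPM were not counted.

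The genes were spread unevenly over the genome, with 41 on chromosome V, 12 on IV, 5 on I, 4 on X, 3 on III and 1 on II. Of the 66 genes, 36 lay in 11 clusters whose members were at most 10 kb from the next, and 30 lay outside. Neighbours differed widely in level. The largest cluster held 7 members on chromosome V (4887187 to 4911399), in the order ugt-12, ugt-11, ugt-9, ugt-10, ugt-8, ugt-14 and ugt-13, and its means over all libraries ran from 0.115 TPM for ugt-10 to 175 TPM for ugt-12. Of its 6 tested members, 5 rose at 0 hr and 6 at 20 hr, where 43.7% and 47.7% of all tested genes rose. At 20 hr ugt-11 and ugt-14 had passed the filter through the atp-2 RNAi libraries alone, so they had to be higher. Within it, ugt-12 and ugt-13 at either end were far above the rest, and ugt-8, ugt-9, ugt-11 and ugt-14 stood at 1.78 to 10.7 TPM on average.

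**Figure D5:**
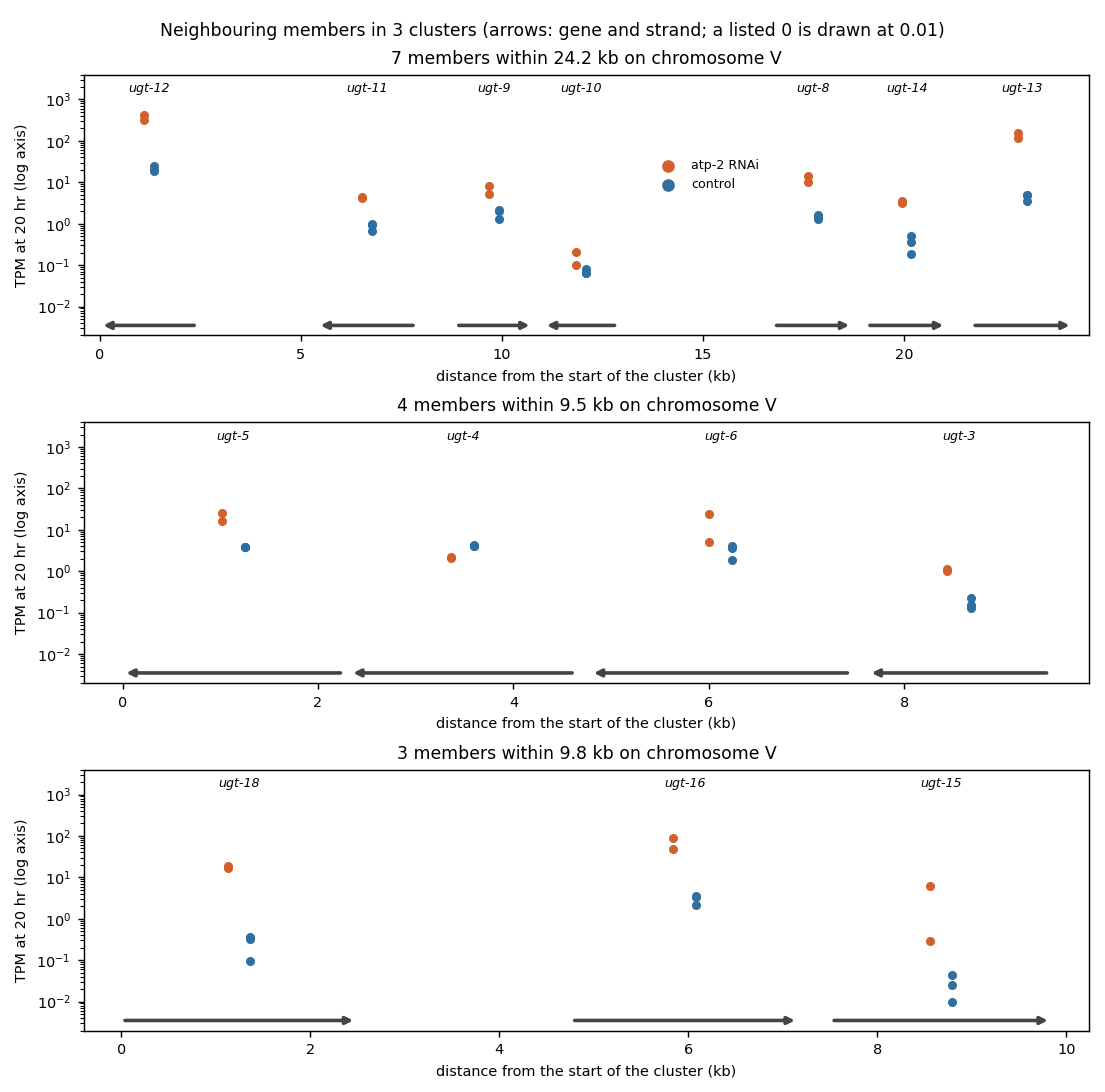
TPM at 20 hr (y axes, log scale) of the members of 3 clusters on chromosome V at their place along the cluster (x axes, distance in kb), with atp-2 RNAi in orange, control in blue and arrows for the strand; a listed 0 is drawn at 0.01. In the cluster of 7 members all atp-2 RNAi points lie above the control points of the same gene, while in the cluster of 4 members ugt-4 lies below its controls between neighbours that lie above theirs.

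Opposite directions also occurred between neighbours. In the cluster of ugt-5, ugt-4, ugt-6 and ugt-3, 9.5 kb long on chromosome V, all on the minus strand, ugt-4 fell at both replicated times while ugt-5 and ugt-6 rose. The gene ugt-5 was at 25.6 and 30.5 TPM in atp-2 RNAi worms at 0 hr, against 5.17, 5.54 and 9.30 TPM in controls (log2 change 1.95), next to ugt-4 with the values given above. In the pair of ugt-47 and ugt-17, 8.64 kb long, ugt-17 stood at 78.3 and 89.4 TPM in atp-2 RNAi worms at 0 hr, against 37.1, 40.2 and 57.8 TPM in controls (log2 change 0.91, limma adjusted p = 0.00345), while ugt-47 fell. In the cluster of ugt-40, ugt-37, ugt-38, ugt-39, ugt-41 and ugt-36, the 4 tested members had log2 changes of 0.21 to 0.59 at 0 hr and were not called. At 20 hr all 4 were called higher, but ugt-37 and ugt-40 had passed the filter through the atp-2 RNAi libraries alone, and the calls of ugt-37, ugt-39 and ugt-40 were lost without some single library and after quantile normalization. The gene ugt-41, the highest of them, was at 28.5 and 43.8 TPM in atp-2 RNAi worms at 20 hr, against 8.64, 7.89 and 8.33 TPM in controls (log2 change 1.97), and at 38.2 and 65.7 TPM at 0 hr, against 28.8, 39.8 and 56.5 TPM in controls. Its values of the 2 groups overlapped at 0 hr. In the cluster of ugt-26, ugt-27, ugt-28 and ugt-25 on chromosome I, 2 of 3 tested members rose at 0 hr and 3 of 3 at 20 hr, too few to set against the shares of all genes.

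Some of these values can mix genes. By the deposited coordinates, 9 members overlap another protein-coding gene, 4 of them on the same strand. The longest overlaps with coding genes are those of ugt-51 with abu-8 on the same strand (2246 bp) and ugt-65 with the collagen gene col-130 on the opposite strand (1017 bp), and ugt-37 and ugt-40 share 23 bp. How reads that match several members, or both strands, were counted is not given in the sources used here, so the values of ugt-51, ugt-65 and close paralogs are uncertain.

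The counts of the other gene lists stand beside the shares of all tested genes given above, which were 43.7% higher and 39.6% lower at 0 hr, and 47.7% higher and 40.7% lower at 20 hr. Among genes that supply the sugar donor, the share that fell at 0 hr was near that of all genes, and most fell at 20 hr. Of 15 tested genes of UDP-sugar supply and transport, 4 rose and 6 fell at 0 hr, and 4 rose and 10 fell at 20 hr. The median log2 change was -0.11 and -0.88, against 0.13 and 0.31 for all genes. The gene sqv-4, whose enzyme oxidizes UDP-glucose to UDP-glucuronic acid, was at 32.8 ± 12.6 TPM in atp-2 RNAi worms at 20 hr, against 244 ± 27.3 TPM in controls (SD, n = 2 and 3; log2 change -2.90, SE 0.23, limma adjusted p = 1.13e-05). K08E3.5, a uridylyltransferase gene whose enzyme makes UDP-glucose, fell at 20 hr (log2 change -1.32, limma adjusted p = 3.72e-05) and was not called at 0 hr (log2 change -0.11, adjusted p = 0.482). D1005.2 of the same list rose at 0 hr, at 11.6 ± 2.74 TPM in atp-2 RNAi worms against 2.76 ± 0.252 TPM in controls (log2 change 1.73, limma adjusted p = 0.000122). At 20 hr D1005.2 was at 5.42 ± 0.790 TPM against 0.881 ± 0.204 TPM, a description, since it passed the filter through the atp-2 RNAi libraries alone. The nucleotide-sugar transporter gene nstp-3 rose most, at 19.4 ± 5.98 TPM in atp-2 RNAi worms at 0 hr, against 0.0889 ± 0.0883 TPM in controls (log2 change 4.20), and nstp-5 of the same family fell (log2 change -1.25). The filter kept nstp-3 through the atp-2 RNAi libraries alone at both times, so it had to be higher and its values are a description. Of 7 genes listed under pyrimidine nucleotide synthesis, not all of which supply uridine, 1 rose and 6 fell at 0 hr. At 20 hr 5 fell and the others were not called. The one that rose was pyr-1, the first enzyme of the route (log2 change 1.15), while rnr-1, a ribonucleotide reductase subunit used in DNA synthesis, fell by most (log2 change -1.56 at 0 hr and -3.52 at 20 hr). Germline markers, from the tissue that holds the dividing cells of the adult, fell in 10 of 10 cases at both times. Their summed level at 0 hr was 105 to 107 TPM in atp-2 RNAi worms, against 1980.2 to 2362 TPM in controls, and the part of that tissue in these falls was not tested.

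Other users of UDP-glucose went both ways. Of 7 tested, 4 rose and 3 fell at 0 hr, and 3 rose and 2 fell at 20 hr. Glycogen synthase, gsy-1, was at 63.8 ± 1.37 TPM in atp-2 RNAi worms at 20 hr, against 249 ± 27.1 TPM in controls (log2 change -1.94, SE 0.14, limma adjusted p = 6.14e-06). The trehalose-6-phosphate synthase gene tps-1 was at 38.03 ± 0.865 TPM in atp-2 RNAi worms at 20 hr, against 6.54 ± 0.818 TPM in controls (log2 change 2.38, SE 0.17, limma adjusted p = 6.05e-06). The ceramide glucosyltransferase gene cgt-1 had the largest rise of the list at 0 hr (log2 change 2.44). Its controls averaged just under the filter of 1 TPM at that time, so it passed through the atp-2 RNAi libraries alone.

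Most tested genes of other detoxification families rose, where 43.7% of all tested genes rose at 0 hr and 47.7% at 20 hr. Cytochrome P450 genes, which often act before conjugation, rose in 43 of 57 tested cases and fell in 7 at 0 hr, and rose in 44 of 54 and fell in 6 at 20 hr. Glutathione S-transferase genes rose in 26 of 38 and fell in 3 at 0 hr, and rose in 30 of 34 and fell in 2 at 20 hr. Their median log2 changes were 1.45 and 1.16 at 0 hr and 2.09 and 1.72 at 20 hr, with the P450 genes first, beside 0.91 and 1.75 for the ugt genes. The largest rises at 20 hr were those of cyp-14A4 (log2 change 7.04) and gst-14 (log2 change 5.97). Of 11 tested genes of other conjugating enzymes, 9 rose at 0 hr and the others were not called, and 9 rose and 1 fell at 20 hr. Of those that rose, gsto-2 at both times and comt-5 at 20 hr passed the filter through the atp-2 RNAi libraries alone, so they had to be higher. How many P450 and glutathione S-transferase genes passed in that way is not given here, so these counts are a description. The catechol-O-methyltransferase gene comt-3 was at 100.2 ± 2.43 TPM in atp-2 RNAi worms at 0 hr, against 11.5 ± 1.91 TPM in controls (log2 change 3.03, SE 0.17, limma adjusted p = 3.16e-06), and the omega-class glutathione transferase gene gsto-1 at 458 ± 65.2 TPM at 20 hr, against 32.4 ± 4.87 TPM in controls (log2 change 3.78, SE 0.17, limma adjusted p = 1.15e-06). Whether the families differ from each other was not tested.

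Of 22 tested genes of multidrug export, whose ABC transporters pump conjugates and drugs out of cells, 13 rose and 3 fell at 0 hr, and 16 of 21 rose and 2 fell at 20 hr. The P-glycoprotein gene pgp-9 was at 283 ± 1.68 TPM in atp-2 RNAi worms at 0 hr, against 7.02 ± 4.48 TPM in controls (SD, n = 2 and 3; log2 change 5.29, SE 0.38, limma adjusted p = 9.87e-06), and its log2 change at 20 hr was 5.91. The gene mrp-4 fell most, at 6.002 ± 1.85 TPM in atp-2 RNAi worms at 20 hr, against 104 ± 24.4 TPM in controls (log2 change -3.90, SE 0.25, limma adjusted p = 4.18e-06). Of 18 tested genes of xenobiotic and stress regulators, 15 rose and 1 fell at 0 hr, and 9 of 17 rose, a share near the 47.7% of all genes, and 3 fell at 20 hr. The forkhead factor gene pha-4 rose most (log2 change 3.87 at 0 hr and 3.06 at 20 hr), and the nuclear receptor gene nhr-86 fell at both times (log2 change -0.62 and -1.15). The transcript of skn-1, a regulator of detoxification genes, was at 147 ± 5.56 TPM in atp-2 RNAi worms at 0 hr, against 136 ± 5.83 TPM in controls (adjusted p = 0.379 by limma), and fell at 20 hr (log2 change -0.41, adjusted p = 0.0112). The intestinal factor gene elt-2 rose at both times (log2 change 1.38 and 2.30).

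The remaining tissue lists also moved. Epidermis markers rose in 8 of 11 tested cases and fell in 2 at 0 hr, and rose in 10 of 12 and fell in 2 at 20 hr, with col-19, a collagen of adult cuticle, falling at both times (log2 change -10.17 at 0 hr and -4.94 at 20 hr). Body wall muscle markers rose in 7 of 10 and fell in 1 at 0 hr, and rose in 10 of 10 at 20 hr. Neuron markers rose in 9 of 10 at 0 hr and 8 of 10 at 20 hr, and the others were not called. The summed level of epidermis markers was 5781 to 9778 TPM in atp-2 RNAi worms, against 3246 to 3801 TPM in controls, at 0 hr, and 6089 to 9119.7 TPM against 443.9 to 533 TPM at 20 hr. That of muscle markers was 5892 to 7289 TPM against 2509 to 4969 TPM at 0 hr, and that of neuron markers 1261 to 1306 TPM against 319.6 to 362 TPM, in the same order. The part of these tissues in the levels of the ugt genes was not tested. Sperm markers fell in 7 of 7 tested cases at 0 hr and in 1 of 1 at 20 hr.

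The authors' deposited tables hold calls of their own. In the authors' deposited table of 0 hr, 38 of the 66 members were marked significant and higher in atp-2 RNAi worms, against 30.8% of the 20191 protein-coding genes, and 9 lower, against 31.3%. In the authors' deposited table of 20 hr, 47 were marked higher, against 33.8%, and 9 lower, against 28.9%. The authors' deposited tables of 24 hr and 36 hr marked 0 members in either direction. The shares of coding genes marked in the authors' deposited table of 24 hr were 0.0248% higher and 0.00495% lower, and in the authors' deposited table of 36 hr 0.0347% and 0.0693%, in the same order. The authors' deposited table of the last pair marked ugt-13 and ugt-19 as higher, against 0.639% of coding genes, and ugt-6 as lower, against 2.17%.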

How the data were processed

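RNA of whole worms was sequenced in 16 libraries. Per the labels' protocols, a GENEzol kit was used for RNA and a SureSelect kit that keeps the strand for the libraries. The submitters' processing notes name bcl2fastq 2.20, TopHat, Cufflinks and the build WBcel235. The sources used here do not give which release of these aligning and assembling programs was run, which annotation was used, how strand was set or what computed the TPM. Each library has a TPM column in the authors' deposited tables, per the file headers, which list a gene without signal at 0.0001, which was set to 0. They also hold the authors' ratio, log2 ratio and p-value or q-value, per the file headers. The test behind these p-values is unnamed, and only the authors' own calls were counted from them. Depth is unknown, so no counting interval or detection limit is given.

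At 0 hr and at 20 hr, limma 3.58.1 (R 4.3.3) compared log2(TPM + 1) of 2 atp-2 RNAi and 3 control libraries with a mean-dependent prior variance, and p-values were adjusted over all genes by Benjamini-Hochberg, with calls at 0.05. Tested genes averaged 1 TPM or more in the libraries compared. The interaction of treatment and time used all 10 libraries. The fits were tested on simulated data. Unreplicated pairs were counted at 2-fold of TPM + 1. Summaries and figures used Python 3.11.15, numpy 2.4.6, pandas 2.3.3 and matplotlib 3.10.9. The alternatives were another pseudocount (0.1), other filters (none, or 5 TPM), scaling by the median or by quantiles, a replicate block within each time and, added after seeing the data, across the times, a single fit of the 10 libraries, a constant prior variance, a tested minimum of 2-fold, and the omission of each library.

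Members, lists, tests and alternatives were chosen with earlier results of these data known. Genes were named by a rule: the 8 largest rises and 6 largest falls at 0 hr and at 20 hr, the 5 largest differences per direction, the 4 largest ratios per direction in each pair, the 8 highest means, members called in opposite directions, and the largest change per direction of each other list. Other genes were named after their values were seen. Coordinates are those of the deposited tables. Protein stretches and promoters were planned and not used here.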

Additional observations from a re-analysis of the deposited data

Results flagged for a closer look

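The change at 20 hr differed from the change at 0 hr for the members below by the interaction test of limma over 10 libraries, with differences on the log2(TPM + 1) scale and adjusted p in brackets. More positive at 20 hr were ugt-13 (3.24, 6.09e-05), ugt-47 (2.41, 0.000125), ugt-66 (2.26, 0.0146), ugt-30 (2.24, 0.0152), ugt-11 (2.06, 0.00487) and ugt-16 (2.03, 0.0142). The fall of ugt-63 at 0 hr was smaller at 20 hr (difference 1.73, 0.000345). The rises of ugt-21 (1.64, 0.0108), ugt-29 (1.63, 0.00714), ugt-12 (1.40, 0.0107), ugt-50 (1.20, 0.0112) and ugt-24 (1.18, 0.0109) were larger at 20 hr, and ugt-49 was also more positive at 20 hr (1.44, 0.00805), while its fall at 0 hr was not called in the fit of the 10 libraries (adjusted p = 0.0671). Smaller differences were those of ugt-19 (1.26, 0.0383), ugt-61 (0.91, 0.0336), ugt-58 (0.69, 0.0158) and ugt-22 (0.61, 0.0462). The calls of ugt-16 (adjusted p = 0.0545 without atp-2 RNAi replicate 3 of 0 hr and 0.0566 without replicate 2 of 20 hr), ugt-19, ugt-22, ugt-30, ugt-43, ugt-58, ugt-61 and ugt-66 were each lost without some single library. More negative at 20 hr were ugt-43 (-1.47, 0.0204) and ugt-44 (-1.34, 0.00877). After quantile normalization the differences of ugt-19, ugt-21 (limma adjusted p = 0.0513), ugt-24 (0.0869), ugt-44, ugt-61 and ugt-66 were not called. With a median shift those of ugt-22, ugt-58 and ugt-61 were not called.

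Some members had a sign in an unreplicated pair opposite to a called change at 0 hr or 20 hr, and these differences were not tested. The log2 ratio of ugt-6 was -1.53 at 24 hr, -2.22 at 36 hr and -3.21 in the 54 hr to 48 hr pair, after rises of 1.21 at 0 hr and 1.62 at 20 hr. The ratio of ugt-63 was 1.26 at 36 hr and 2.24 in the last pair, after falls at 0 hr (-2.62) and 20 hr (-0.89). The ratio of ugt-65 was -1.77 at 36 hr and -2.15 in the last pair, after a rise of 0.90 at 0 hr that was lost without either atp-2 RNAi library (adjusted p = 0.13 and 0.0969). The ratio of ugt-33 was -1.02 at 36 hr, after rises of 2.69 and 2.97. The ratio of ugt-47 was -1.06 at 24 hr and -1.63 in the last pair, and that of ugt-49 was -1.80 in the last pair, after rises at 20 hr. The ratio of ugt-43 was -1.24 in the last pair, after a rise of 0.80 at 0 hr. No group had 4 or more libraries, so single libraries were not tested for standing apart.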

How the results depend on the processing

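Counts of called members lay within 1.5 times the main count under 102 combinations of a result and an alternative and moved further under 16. A minimum of 2-fold gave 17 higher and 2 lower at 0 hr, 0 lower at 20 hr, and 2 more positive and 0 more negative differences, since it asks for a larger change. Quantile normalization gave 16 more positive and 4 more negative differences. A mean of at least 5 TPM, which tests fewer genes, gave 1 more negative difference, and so did the replicate block. The block otherwise gave 36 higher and 11 lower at 0 hr, 44 and 6 at 20 hr (ugt-32 was not called, adjusted p = 0.0648), and 28 more positive differences. Same-numbered atp-2 RNAi and control libraries of 1 time did not deviate together over the tested genes (correlations 0.03 and -0.05 at 0 hr, -0.07 and 0.01 at 20 hr), so the numbers were not used to pair them. Between the times, same-numbered libraries of 1 treatment had correlations of -0.04 in atp-2 RNAi worms and 0.09, 0.02 and 0.18 in controls over the tested genes, but of 0.49, and of 0.18, 0.30 and 0.22, over the tested members. A replicate block across the times within each treatment, chosen after seeing the data, gave 26 more positive differences, 25 of them among the 28 (ugt-22, ugt-37 and ugt-61 were lost), and 2 more negative ones. Leaving out 1 library gave 32 to 37 higher and 6 to 9 lower at 0 hr, 40 to 43 and 7 to 9 at 20 hr, and 17 to 30 more positive and 1 to 4 more negative differences. At 24 hr, 4 members were lower with a pseudocount of 0.1 or a median shift. Summed TPM moved by less than the spread in 7 cases and by more in 3, which after quantile normalization were 1144 TPM in the 24 hr control, and 2212 TPM in the atp-2 RNAi library and 1578 TPM in the control at 36 hr. A median shift moved the median change of all genes at 0 hr from 0.13 to -0.02 and at 20 hr from 0.31 to 0.19, and quantile normalization moved it to 0.09 and 0.12, while the members' medians were 0.76 and 1.63, and 0.89 and 1.30. For single members, 1056 values kept their direction and side of the threshold, 112 lost their call, 10 gained one and 9 turned round. The last were ugt-44 at 0 hr (0.031 with the block, and -0.18 to 0.031 over the fits that leave out 1 library), ugt-11 at 0 hr (-1.07 to 0.028 over such fits), ugt-30 at 20 hr (-0.75 after quantile normalization, -0.43 to 1.11 over such fits) and ugt-65 at 20 hr (-0.079 with a median shift, -1.10 after quantile normalization, -0.13 to 0.20 over such fits). None of these was called with the settings of the report, but some were under an alternative: ugt-65 at 20 hr (adjusted p = 0.0009) and ugt-11 at 0 hr (0.0289) were lower after quantile normalization, and ugt-30 at 20 hr was higher without atp-2 RNAi replicate 2 (0.00137) and lower without replicate 3 (0.0368). The cause of these moves was not tested.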
